A study of Mus musculus with 4 samples.

Results

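The genes described here are the matrix metalloproteinases (MMPs), the ADAM, ADAMTS and ADAMTS-like proteins, and the TIMP inhibitors, 77 of the 38293 gene rows measured in mammary tumours of mice with and without AXL. Membership rests on the symbol, the genes being all protein-coding ones with a symbol Mmp, Timp, Adam, Adamts or Adamtsl followed by a number. They comprise 22 MMP genes, 4 TIMP genes, 27 ADAM genes, 19 ADAMTS genes and 5 ADAMTS-like genes. RNA was sequenced from 4 tumour samples of FVB mice, all MMTV-Neu. In this model the mammary tumour virus promoter drives the Neu (Erbb2) oncogene in mammary epithelium. In 2 samples the genotype was AXL KO, with the gene for the receptor tyrosine kinase AXL knocked out, and in 2 it was WT. The labels give no age and do not say whether the 2 samples of a group came from separate animals or tumours. A p-value here thus reflects the spread among these 4 samples alone, part of which may be technical. Below, a tumour means a single such sample. The libraries were made from whole tumour tissue, in which fewer cells of a type and less RNA per cell cannot be told apart.

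MMPs, ADAMs and ADAMTS proteins are zinc proteases. MMPs are made as inactive precursors and cut collagens, laminins, proteoglycans and other matrix proteins, either after secretion or, for the membrane-type MMPs, at the cell surface. Several ADAMs are sheddases, which release the outer part of membrane proteins such as growth factor precursors, and ADAM10 and ADAM17 release the ligands of the EGF receptor family to which Neu belongs. ADAMTS proteins are secreted and cut proteoglycans such as versican and aggrecan or trim procollagen, and ADAMTS-like proteins resemble them but lack the protease domain. TIMPs bind and block the active sites of these enzymes. In mammary tumours many MMPs are known as products of fibroblasts and infiltrating leukocytes rather than of the epithelium.

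Reads in genes ran from 18929743 to 33131739 per library. Axl was at 61.8 and 35.2 CPM (read counts scaled to the library's total) in the WT pair against 4.75 and 4.89 in the AXL KO pair, replicate 1 being given first here and below, a log2 difference of −3.33 ± 0.35 (SE) whose direction fits the labels. By edgeR's quasi-likelihood test no gene passed at an adjusted p of 0.05, Axl included (adjusted p = 0.9997), while DESeq2 called Axl with an adjusted p of 2.23e-13. The epithelial markers Krt8, Krt18, Epcam and Erbb2 and 6 further ones were all tested, with a summed level of 14950 and 16940 CPM in the WT pair against 23590 and 23600 in the AXL KO pair. Most of that sum was Erbb2, the gene of the Neu oncogene, at 10970 and 12590 CPM in the WT pair against 19780 and 19980 in the AXL KO pair. The sum thus does not describe the list, in which 7 of 10 markers had a negative log2 difference and 3 a positive one. The median of the 10 was −0.10, and 50.3% of all genes were negative. A pair of libraries stood apart in marker and target genes, and the part of this in the genes below was not tested. AXL KO replicate 1 was the lowest library for 9 of 11 fibroblast markers, with a summed level of 337.1 CPM against 772.7, 1156 and 1060 CPM in WT replicate 1, WT replicate 2 and AXL KO replicate 2. WT replicate 2 was the highest library for 12 of 12 hypoxia targets, with a summed level of 3234 CPM against 1206 to 1738 CPM in the others. That library was the highest for 34.6% of all tested genes. The hypoxia list was drawn up with its state already known from these data, so the 12 of 12 is no independent evidence. The 10 neutrophil markers summed to 3.19 to 6.33 CPM, with Ly6g and Camp at 0 in all 4 libraries. Most of that sum was Csf3r, at 4.12 and 1.52 CPM in the WT pair against 5.07 and 4.8 in the AXL KO pair. Macrophage markers summed to 623.8 to 1025 CPM, lowest in WT replicate 2. T and NK cell markers summed to 3.14 CPM in WT replicate 2 and to 13.2 to 22.1 CPM in the others, and endothelial markers to 110.1 to 150.4 CPM.

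No metalloproteinase or TIMP gene passed the test between AXL KO and WT tumours. Of the 77 genes 43 had enough reads to be tested, and 0 of them reached an adjusted p of 0.05 by edgeR's quasi-likelihood test, as did 0% of all 14330 genes tested. DESeq2 and limma-voom also called 0 of the 43, and DESeq2 called 0.112% of all genes. At an unadjusted p under 0.05 there was 1 gene by each of the 3 tools, Mmp16 by edgeR and by DESeq2, against 2.19% of all genes by edgeR. Of the 43 genes, 3 had both knockout values above both WT values (6.98%, against 14.7% of all genes), and 6 had both below (14%, against 14.5% of all genes). The 3 higher genes were Mmp16, Mmp25 and Adam11, and the 6 lower ones Adam8, Adam9, Adam33, Adamts1, Adamts15 and Adamts17. Both shares were at or below the background, so non-overlap does not set these genes apart. The remaining 34 of the 43 overlapped between groups.

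**Figure D1:**
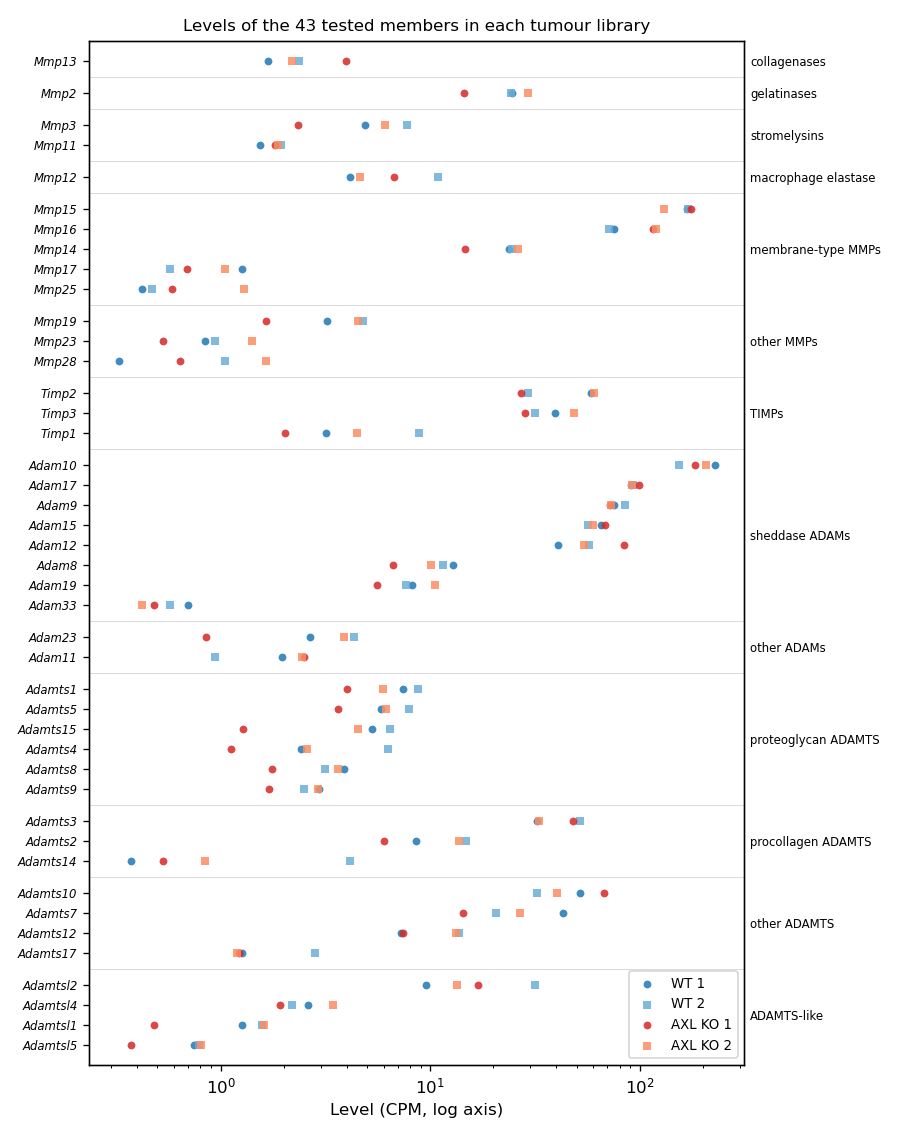
Level of each tested gene in each of the 4 tumour libraries, in CPM on a log axis, grouped by role. Each point is 1 library (blue WT, red AXL KO), and the groups overlap for 34 of the 43 genes, while for Mmp16 both AXL KO points lie to the right of both WT points.

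The tested genes leaned lower in AXL KO without any of them passing the test, and the sign of the median rested on AXL KO replicate 1. The log2 difference (AXL KO minus WT) was negative for 28 of the 43 and positive for 15, with a median of −0.16, while the median of all 14330 genes was −0.0019 and 50.3% of all genes were negative. AXL KO replicate 1 was the lowest of the 4 libraries for 23 of the 43 genes (53.5%), against 24.7% of all genes. AXL KO replicate 2 was the lowest for 3 of the 43 (6.98%), against 16.7% of all genes. The median deviation of a gene from its 4-library mean was −0.42 on the log2 scale in AXL KO replicate 1 and 0.23 in AXL KO replicate 2. Without AXL KO replicate 1 the median log2 difference turned to 0.09, with 26 genes positive and 21 negative, and without AXL KO replicate 2 it was −0.52, with 12 positive and 32 negative. The 2 knockout tumours thus lay on opposite sides of the WT tumours, whose median deviations were 0.07 and 0.11. The fibroblast markers were also lowest in AXL KO replicate 1, with a mean log2 deviation of −0.74, but were at −0.09 and 0.46 in the WT pair and at 0.38 in AXL KO replicate 2. Endothelial markers were at −0.06 and 0.04 in the WT pair against −0.30 and 0.32 in the AXL KO pair, and mast cell markers at −0.58 and 0.63 against −0.62 and 0.57. Basal and myoepithelial markers were also lowest in AXL KO 1, at −0.38. Macrophage and T and NK cell markers were lowest in WT replicate 2, at −0.31 and −1.70, against −0.21 and 0.24 in AXL KO 1. Adipocyte and epithelial markers were lowest in WT replicate 1, at −0.44 and −0.07, against −0.06 and −0.03 in AXL KO 1. The part of these markers in the result was not tested.

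**Figure D2:**
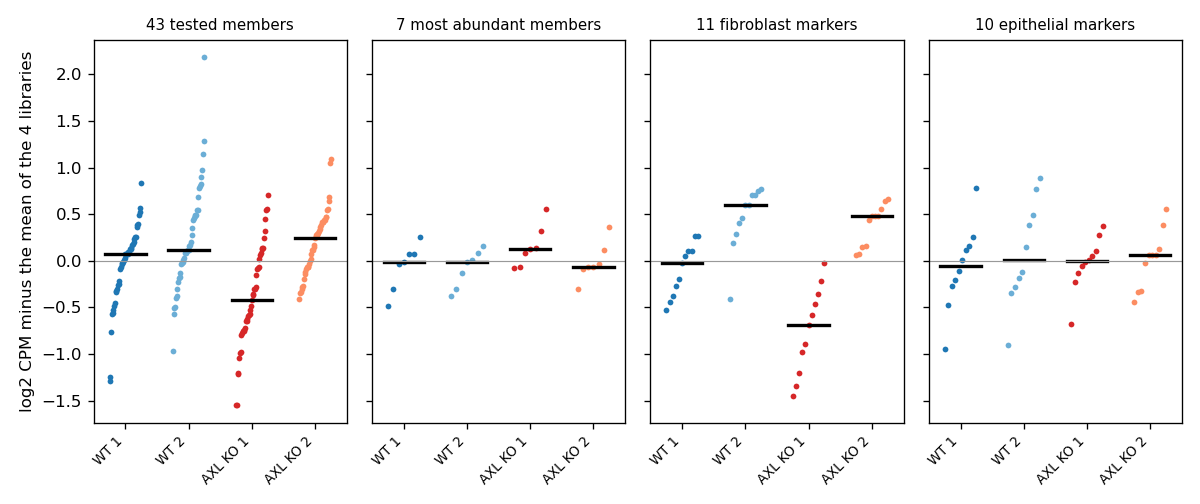
Log2 CPM of each gene minus its mean over the 4 libraries, for the 43 tested metalloproteinase and inhibitor genes, the 7 with the most reads, the 11 fibroblast markers and the 10 epithelial markers. Each point is 1 gene and each black bar a median; the 43 genes and the fibroblast markers are lowest in AXL KO 1, while the 7 genes with the most reads are not.

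Relative to exon length, Adam10, Mmp15, Adam9 and Adam17 stood at the top of the family. Measured as CPM per kilobase of exon sequence and averaged over the 4 libraries, Adam10 was at 39.2, Mmp15 at 29.8, Adam9 at 18.5, Adam17 at 13.1, Timp2 at 11.2, Mmp16 at 11 and Adam15 at 10.1. The secreted MMPs were lower, led by Mmp2 at 6.88 and Mmp3 at 2.93, and Mmp9 was at 0.115. The other membrane-type MMPs lay below Mmp2, with Mmp14 at 3.73, Mmp17 at 0.135, Mmp25 at 0.13 and Mmp24 at 0.018. Adam10, Mmp15, Mmp16, Adam17, Adam9, Adam15 and Adam12 together took 66.8% of the reads on the 77 genes, a share that also depends on transcript length. The reads on all 77 genes summed to 1127 and 1076 CPM in the WT pair against 1098 and 1132 in the AXL KO pair, so the total overlapped between groups.

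Mmp16 was the family member with the smallest p, and its level was higher in both knockout tumours. It encodes a membrane-anchored MMP, also called MT3-MMP, and lies on the plus strand of chromosome 4 from 17852893 to 18119145 (GRCm38). Its level was 75.3 and 71.3 CPM in the WT pair against 115 and 119 in the AXL KO pair. The groups did not overlap, and the gap between them was wider than the spread within either, with means of 73.3 ± 2.84 and 117 ± 2.62 CPM (SD, n = 2 each). The log2 difference was 0.68 ± 0.16 (SE), a 1.6-fold higher level, with an unadjusted p of 0.00789 and an adjusted p of 0.9997 over all genes by edgeR, and an adjusted p of 0.653 by DESeq2, so it passed neither test. With each library left out in turn the difference stayed between 0.64 and 0.73. Mmp16 is singled out by its p in these same libraries, so the gap and this narrow range are no further support. AXL KO replicate 1, which was low for many other members, was as high for Mmp16 as AXL KO replicate 2.

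Among the other tested membrane-type MMPs, only Mmp25 also had both knockout values above both WT values. Mmp15 (MT2-MMP), whose transcript was the most abundant MMP per length, was at 168.1 and 169.7 CPM in the WT pair against 175.9 and 129.8 in the AXL KO pair, so only AXL KO replicate 2 was lower, and the log2 difference of −0.14 ± 0.21 turned to 0.04 without that library. Mmp14, which encodes MT1-MMP, a collagenase of the cell surface, was at 23.7 and 24.5 CPM in the WT pair against 14.6 and 26.2 in the AXL KO pair. Its 3 other libraries were close together, and AXL KO replicate 1 alone was low, so that the log2 difference moved from −0.23 ± 0.33 to 0.12 without it. Mmp25, which encodes a GPI-anchored MMP known from leukocytes, was at 0.421 and 0.471 CPM in the WT pair against 0.587 and 1.29 in the AXL KO pair. Its log2 difference of 1.11 ± 0.63 rested on few reads, 9 in each WT library and 11 and 43 in AXL KO replicates 1 and 2, and was 0.38 without AXL KO replicate 2. Mmp17, another GPI-anchored member, had a difference of −0.06 ± 0.60 with overlapping groups, which ran from −0.49 without WT replicate 2 to 0.64 without WT replicate 1. Mmp24 had 0 to 4 reads per library and was not tested.

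Gelatinase RNA was nearly all Mmp2. MMP2, or gelatinase A, cuts denatured collagen and type IV collagen, and its precursor is activated at the cell surface by a complex of MMP14 and TIMP2. Mmp2 was at 24.6 and 24.3 CPM in the WT pair against 14.5 and 29.3 in the AXL KO pair. Like Mmp14 it was lowest in AXL KO replicate 1 and highest in AXL KO replicate 2, with both WT libraries between them, and the log2 difference was −0.16 ± 0.37, or 0.25 without AXL KO replicate 1 and −0.77 without AXL KO replicate 2. Mmp9, which encodes gelatinase B and is best known from neutrophils and macrophages, had only 7, 9, 10 and 10 reads in WT 1, WT 2, AXL KO 1 and AXL KO 2 and was not tested.

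The TIMP genes differed more within the groups than between them. Timp2, whose product both inhibits MMPs and helps to activate MMP2, was at 58.8 and 29.1 CPM in the WT pair against 27.1 and 60.3 in the AXL KO pair. Each group held 1 high and 1 low tumour, about 2-fold apart, and the log2 difference was −0.0070 ± 0.50, with a range from −0.72 without AXL KO replicate 2 to 0.60 without WT replicate 1. Timp3, whose product binds to the matrix and also inhibits ADAM17, was at 39.4, 31.7, 28.2 and 48.3 CPM in WT 1, WT 2, AXL KO 1 and AXL KO 2. Here too the AXL KO libraries were the lowest and the highest, and the difference of 0.11 ± 0.31 became −0.35 without AXL KO replicate 2. Timp1, which encodes a secreted inhibitor induced by many cytokines, was at 3.18 and 8.85 CPM in the WT pair against 2.03 and 4.5 in the AXL KO pair, with a log2 difference of −0.86 ± 0.65. It was highest in WT replicate 2, without which the difference was 0.07. Timp4 had 9, 6, 1 and 11 reads and was not tested. The exons of Timp3 overlap those of Syn3 on the opposite strand over 21.3% of their length. The strand setting of the counting was not stated in any source used, so how reads in that stretch were counted is not known.

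The secreted collagenase, stromelysin and elastase genes, except Mmp11 on chromosome 10, lie side by side on chromosome 9. Their cluster holds 9 of the 77 genes, from 7272514 to 7699585 (GRCm38), and its genes were weakly expressed. Mmp13, Mmp12 and Mmp3 had enough reads to be tested, Mmp8, Mmp27 and Mmp10 had a few reads, and Mmp1b, Mmp20 and Mmp7 had none in any library, where a count of 0 (limit of 3 counts) allows up to 0.0324 CPM over the 4 libraries, for counting error only. Promoters of this cluster are known for AP-1 sites, which bind FOS and JUN proteins. RefSeq promoter windows (GRCm38.p6, 250 bases before to 50 after a gene's start) were found for 47 of the 77 genes, among them all 9 of the cluster. The AP-1 motif TGANTCA, which reads the same on both strands, was present for 7 of the 9 cluster genes, in at least 1 of the windows of each, while 7.81% of all 32851 windows held it. The windows of the 3 tested cluster genes are shown because they carry this motif near the start, with the motif in capitals, from 100 bases before to 50 after the start on the plus strand. The motif begins 46, 44 and 35 bases before the start of Mmp3, of the downstream of the 2 windows of Mmp12, and of Mmp13. They lie at chr9:7445722-7445871, chr9:7347274-7347423 and chr9:7272414-7272563.
Mmp3: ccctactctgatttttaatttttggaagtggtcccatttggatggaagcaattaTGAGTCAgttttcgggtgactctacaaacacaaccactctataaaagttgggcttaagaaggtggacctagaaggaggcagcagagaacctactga
Mmp12: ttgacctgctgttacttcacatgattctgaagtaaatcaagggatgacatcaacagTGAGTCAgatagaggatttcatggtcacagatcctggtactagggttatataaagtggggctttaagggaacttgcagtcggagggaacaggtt
Mmp13: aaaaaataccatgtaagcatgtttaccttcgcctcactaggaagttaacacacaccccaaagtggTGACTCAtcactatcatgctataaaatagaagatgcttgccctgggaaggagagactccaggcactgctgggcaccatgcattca

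These 3 neighbours had different orders of the tumours. Mmp3, which encodes stromelysin 1, a broad matrix protease of fibroblasts, was at 4.86 and 7.75 CPM in the WT pair against 2.35 and 6.12 in the AXL KO pair, highest in WT replicate 2 and lowest in AXL KO replicate 1. Mmp12, which encodes the macrophage elastase, was at 4.16 and 10.8 CPM in the WT pair against 6.73 and 4.62 in the AXL KO pair, highest in WT replicate 2, the library in which the summed macrophage markers were lowest, and lowest in WT replicate 1. Mmp13, the main interstitial collagenase of rodents, was at 1.68 and 2.36 CPM in the WT pair against 3.95 and 2.19 in the AXL KO pair, highest in AXL KO replicate 1 and lowest in WT replicate 1. Mmp3 and Mmp12 thus shared their highest library and Mmp12 and Mmp13 their lowest, and the groups overlapped for each of the 3. The log2 differences were −0.56 ± 0.56 for Mmp3, −0.41 ± 0.54 for Mmp12 and 0.59 ± 0.48 for Mmp13, and that of Mmp12 turned to 0.43 without WT replicate 2.

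The remaining MMP genes had low and overlapping levels. Mmp11, which encodes stromelysin 3, known from fibroblasts around carcinomas, was at 1.54 and 1.94 CPM in the WT pair against 1.82 and 1.89 in the AXL KO pair. Its 4 libraries lay close together, with a log2 difference of 0.09 ± 0.41. Mmp19 had a difference of −0.34 ± 0.57 and Mmp23 one of 0.18 ± 0.62, and both were lowest in AXL KO replicate 1. Without that library the difference of Mmp19 was 0.18, and without AXL KO replicate 2 that of Mmp23 was −0.75. Mmp28, which encodes epilysin, an MMP of epithelia, ran from 0.327 CPM in WT replicate 1 to 1.65 CPM in AXL KO replicate 2, with a difference of 0.80 ± 0.78 that was −0.10 without AXL KO replicate 2. The exons of Mmp19 overlap those of Tmem198b on the opposite strand over 22.3% of their length. Mmp21 had no reads.

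Sheddase ADAM genes with the highest levels per length differed little between the groups. Adam10, whose product cuts Notch receptors, cadherins and growth factor precursors, was at 227 and 154 CPM in the WT pair against 182 and 206 in the AXL KO pair, both knockout values within the WT range. Adam17, which encodes the TNF-converting enzyme, was at 91.1 and 92.4 CPM in the WT pair against 99.3 and 91.5 in the AXL KO pair, and its log2 difference was 0.06 ± 0.16. Adam15, a disintegrin protease of epithelium and endothelium, was at 65.3, 56.7, 67.8 and 59.5 CPM in WT 1, WT 2, AXL KO 1 and AXL KO 2. The 3 genes thus overlapped between groups, with differences of 0.03 ± 0.24 for Adam10 and 0.06 ± 0.18 for Adam15, and the sign of all 3 changed when 1 library was left out. Adam9 was at 75.2 and 85.3 CPM in the WT pair against 72.0 and 72.7 in the AXL KO pair, so its groups did not overlap, but the log2 difference was only −0.15 ± 0.17. The exons of Adam15 overlap those of 4731419I09Rik on the opposite strand over 20.6% of their length.

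Adam12 and Adam8 had larger differences in opposite directions. Adam12, which encodes a sheddase known to rise in carcinomas, was at 40.9 and 57.4 CPM in the WT pair against 84.1 and 54.0 in the AXL KO pair. AXL KO replicate 1 was the highest library and AXL KO replicate 2 lay within the WT range, and the log2 difference of 0.49 ± 0.30 was 0.13 without AXL KO replicate 1. Adam8, which encodes a protease known from leukocytes and tumour cells, was at 12.9 and 11.5 CPM in the WT pair against 6.68 and 10.1 in the AXL KO pair, lower in both knockout tumours, with a difference of −0.53 ± 0.32 (unadjusted p = 0.157, adjusted p = 0.9997 by edgeR). It was −0.28 without AXL KO replicate 1. Adam19 had a difference of 0.03 ± 0.40 and Adam33, at 0.42 to 0.701 CPM, one of −0.52 ± 0.55, while Adam28 had at most 1 read per library.

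Most other ADAM genes were silent at this depth, and they include many known from testis. Of 18 such genes 2 were tested. Adam11, which encodes a protein without protease activity best known from neurons, was at 1.96 and 0.942 CPM in the WT pair against 2.51 and 2.46 in the AXL KO pair, higher in both knockout tumours by 0.76 ± 0.50 on the log2 scale. Adam23, another member without protease activity, was at 2.67 and 4.35 CPM in the WT pair against 0.855 and 3.87 in the AXL KO pair, lowest in AXL KO replicate 1, and its difference of −0.53 ± 0.74 was 0.14 without that library. Over the whole family 15 of the 77 genes had no read in any of the 4 libraries, and 19 more had too few to be tested, with mean levels up to 0.468 CPM. Of 6 testis germ cell markers, Prm1, Prm2, Tnp1 and Tnp2 were at 0 in all libraries, and Sycp3 and Ddx4 had 0 to 4 reads per library.

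**Figure D3:**
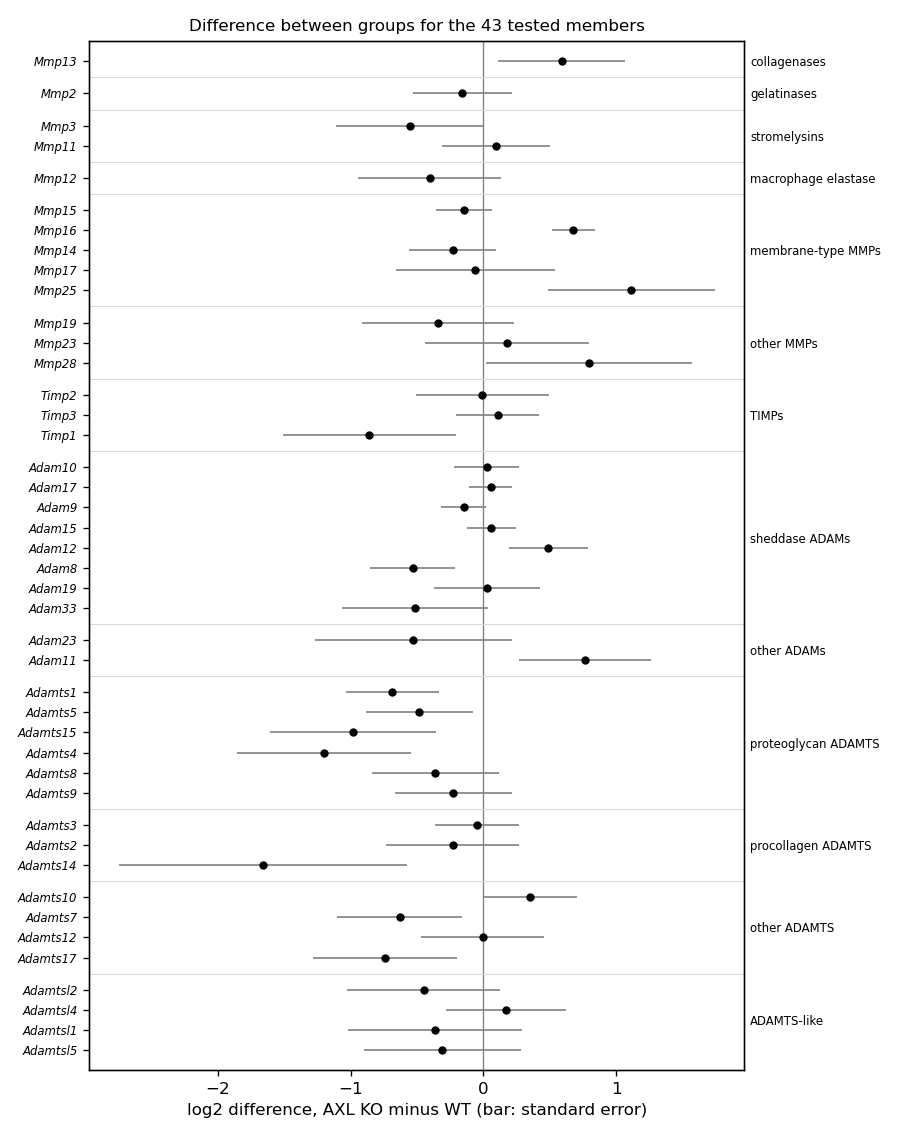
Log2 difference between the AXL KO and WT groups for each of the 43 tested genes, grouped by role, with bars of 1 standard error. All 6 proteoglycan-cleaving ADAMTS genes lie left of 0, Mmp16 has the difference that is largest relative to its error, and none passed the test.

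The proteoglycan-cleaving ADAMTS genes were the role group with the lowest median among those with more than 1 tested gene. All 6 tested members had a negative log2 difference, against 50.3% of all genes, with a median of −0.58. In 2 of them both knockout values lay below both WT values, against 14.5% of all genes, and 0 passed the test or reached an unadjusted p under 0.05. Adamts1, which encodes a versican and aggrecan protease, was at 7.39 and 8.74 CPM in the WT pair against 4.01 and 5.97 in the AXL KO pair, and Adamts15, another versican protease, was at 5.28 and 6.44 CPM in the WT pair against 1.28 and 4.53 in the AXL KO pair. Both were lower in each knockout tumour than in each WT tumour, by −0.69 ± 0.35 and −0.98 ± 0.62 on the log2 scale. Adamts4, which encodes aggrecanase 1, was at 2.43 and 6.28 CPM in the WT pair against 1.12 and 2.58 in the AXL KO pair, so that WT replicate 2 was high and AXL KO replicate 1 low, and its difference of −1.20 ± 0.66 was −0.35 without WT replicate 2. Adamts5 and Adamts8 had differences of −0.48 ± 0.41 and −0.36 ± 0.48, and Adamts9 one of −0.23 ± 0.44.

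In this role group too AXL KO replicate 1 was the lowest library, for 6 of the 6 genes. Their levels summed to 27.8 and 35.1 CPM in the WT pair against 13.5 and 25.9 in the AXL KO pair, the first of which is the library lowest in fibroblast markers. Without AXL KO replicate 1 the log2 differences were −0.44 for Adamts1, −0.37 for Adamts15, −0.75 for Adamts4 and −0.16 for Adamts5, and they were 0.04 for Adamts8 and 0.09 for Adamts9. The part of the fibroblast markers in these values was not tested. The group holds neighbours, which are not independent by position. Adamts1 and Adamts5 lie 53.1 kilobases apart on chromosome 16, and Adamts15 and Adamts8 lie 20.1 kilobases apart on chromosome 9.

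Among the procollagen N-propeptidases, which trim the amino-terminal end of fibrillar procollagens, the libraries differed by gene. Adamts3 was at 32.2 and 51.6 CPM in the WT pair against 47.8 and 33.1 in the AXL KO pair, with a high and a low tumour in each group. Adamts2 was at 8.51 and 14.8 CPM in the WT pair against 6.04 and 13.7 in the AXL KO pair, again with a high and a low tumour in each. Adamts14 was at 0.374 and 4.14 CPM in the WT pair against 0.534 and 0.84 in the AXL KO pair, and was the only tested member with a mean of at least 1 CPM in which 1 library, WT replicate 2, exceeded each of the others by more than 4-fold. Its log2 difference of −1.66 ± 1.09, the most negative of the 43 but not past the test, became 0.91 without WT replicate 2. Those of Adamts2 and Adamts3 were −0.23 ± 0.50 and −0.05 ± 0.32, and they turned to 0.23 without AXL KO replicate 1 and to 0.32 without WT replicate 2.

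The other ADAMTS genes gave no shared direction. Adamts10, whose product takes part in fibrillin microfibrils, was at 51.8 and 32.4 CPM in the WT pair against 67.1 and 40.1 in the AXL KO pair, with a log2 difference of 0.35 ± 0.35 that was −0.07 without AXL KO replicate 1. Adamts7, whose product cuts the cartilage protein COMP, was at 43.1 and 20.7 CPM in the WT pair against 14.3 and 26.8 in the AXL KO pair. WT replicate 1 was its highest library, and the difference of −0.63 ± 0.47 was 0.0044 without it. Adamts12, a relative of Adamts7, was at 7.25 and 13.7 CPM in the WT pair against 7.42 and 13.3 in the AXL KO pair, which left a difference of −0.0060 ± 0.46 whose sign changed in limma-voom. Adamts17 was at 1.26 and 2.83 CPM in the WT pair against 1.23 and 1.2 in the AXL KO pair, and its difference of −0.74 ± 0.54 was −0.06 without WT replicate 2. Adamts6, with 7 to 25 reads per library, and Adamts13, Adamts16, Adamts18 and Adamts19, with 0 to 6, were not tested.

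ADAMTS-like genes encode matrix proteins that bind fibrillin and have no protease domain. Adamtsl2 was at 9.54 and 31.7 CPM in the WT pair against 16.8 and 13.4 in the AXL KO pair, highest in WT replicate 2, without which its log2 difference moved from −0.45 ± 0.58 to 0.66. Adamtsl4, at 2.62, 2.2, 1.92 and 3.45 CPM in WT 1, WT 2, AXL KO 1 and AXL KO 2, had a difference of 0.17 ± 0.45, which was −0.34 without AXL KO replicate 2. Adamtsl1 and Adamtsl5 had differences of −0.37 ± 0.66 and −0.31 ± 0.59. These 3 genes were lowest in AXL KO replicate 1. Adamtsl3 was not tested.

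WT replicate 2 was the highest library for 17 of the 43 genes (39.5%), against 34.6% of all genes, which is a similar share. It was the lowest library for 6 of the 43 (14%), a smaller share than the 35.8% of all genes. Timp1 is shown because it was highest in that library, as the hypoxia targets were, and its window holds the hypoxia motif ACGTG, the core bound by HIF proteins. The motif was searched on both strands, begins 82 bases before the start and is in capitals. The window holds no match to TGANTCA, the only form of the AP-1 motif that was searched for. The stretch runs from 100 bases before to 50 after the start at chrX:20870066-20870215 on the plus strand.
Timp1: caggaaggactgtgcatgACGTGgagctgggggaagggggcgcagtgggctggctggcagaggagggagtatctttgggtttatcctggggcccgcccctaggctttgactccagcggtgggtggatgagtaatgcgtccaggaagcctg

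The same motif was present for 3 of the 12 tested genes that were highest in WT replicate 2 and had a window, for 3 of the 16 other tested genes with a window, and in 19.6% of all windows. Adamts17, also highest in WT replicate 2, held it, and Adamts14, in which that library stood farthest apart, did not. A match describes letters in the window and no more, and the part of the hypoxia targets, of which 0 of 12 passed the test with a median log2 difference of −1.33, in the values of these genes was not tested.

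The genes that serve these proteases were taken from lists of partners. The 8 tested partners of the sheddases were 4 positive and 4 negative in log2 difference; the 4 negative ones, Rhbdf1, Rhbdf2, Frmd8 and Tspan33, had both knockout values below both WT values, as 14.5% of all genes did, and 0 passed edgeR over all genes, with 1 at an unadjusted p under 0.05. Rhbdf2 and Rhbdf1 encode the iRhoms, which carry ADAM17 through the secretory pathway, and Frmd8 encodes a protein that stabilises them. Rhbdf2 was at 60.2 and 70.05 CPM in the WT pair against 46.1 and 48.3 in the AXL KO pair, with a log2 difference of −0.46 ± 0.18 and an unadjusted p of 0.0477. Rhbdf1 was at 80.4 and 83.6 CPM in the WT pair against 63.4 and 61.9 in the AXL KO pair, with a difference of −0.39 ± 0.16, and Frmd8 was at 44.6 and 74.5 CPM in the WT pair against 34.1 and 40.6 in the AXL KO pair, with one of −0.67 ± 0.30. These 3 were lower in each knockout tumour, so leaving out 1 library could not change their sign. Their differences were −0.44, −0.41 and −0.56 without AXL KO replicate 1, and −0.35, −0.36 and −0.26 without WT replicate 2. The transcript of Adam17 itself, given above, overlapped between groups.

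**Figure D4:**
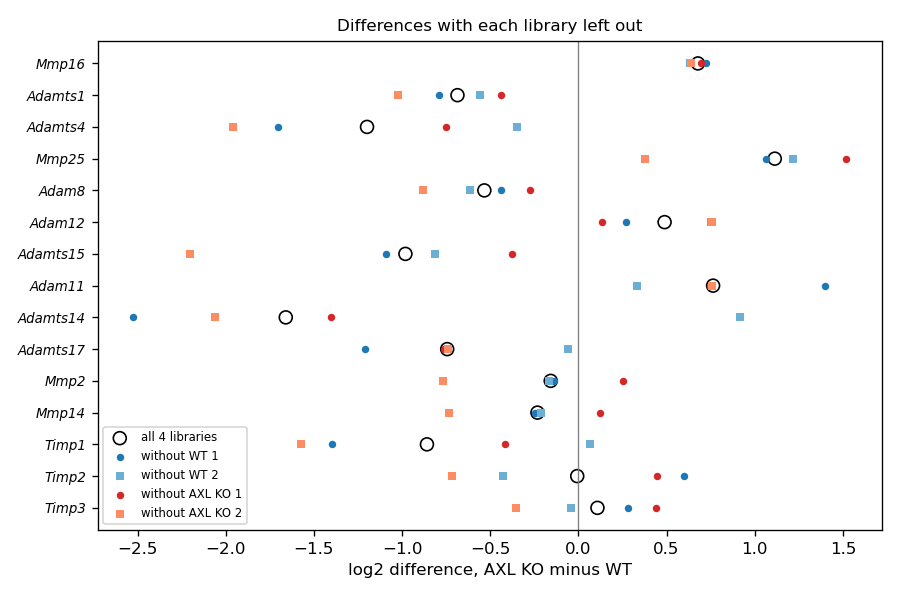
Log2 difference between AXL KO and WT with all 4 libraries (open circles) and with each library left out in turn (filled points), for the 10 tested genes with the smallest p and for Mmp2, Mmp14 and the tested Timp genes. The points of Mmp16 stay between 0.64 and 0.73, while those of Mmp2, Mmp14, Adamts14 and the 3 Timp genes lie on both sides of 0. The 10 genes were picked by p in these same libraries, so a narrow range among them is no further support.

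Among other inhibitors, A2m, which encodes the broad protease trap alpha-2-macroglobulin, was at 14.9 and 82.7 CPM in the WT pair against 11.8 and 10.95 in the AXL KO pair. WT replicate 2 alone was high, and without it the log2 difference moved from −2.10 ± 0.78 to −0.39. Reck, which encodes a membrane-anchored MMP inhibitor, was at 15.0 and 16.2 CPM in the WT pair against 22.5 and 17.1 in the AXL KO pair, with a difference of 0.34 ± 0.26. Bsg, which encodes an inducer of MMPs called EMMPRIN, was at 373.8 and 926.1 CPM in the WT pair against 486.7 and 377.3 in the AXL KO pair. It was highest in WT replicate 2, without which its difference turned from −0.59 to 0.21. Of the 5 tested genes of this list 1 lay above, against 14.7% of all genes, and 1 below, against 14.5%; 0 passed edgeR's test, with 1 (A2m) at an unadjusted p under 0.05.

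The plasminogen system, whose protease plasmin activates several MMPs, had 5 tested genes, of which 4 had a negative difference and all overlapped between groups. Serpine2 had a difference of −0.35 ± 0.31, which turned to 0.10 without WT replicate 2, and Plaur, the urokinase receptor gene, one of −0.22 ± 0.43. The proprotein convertases, which cut the propeptides of ADAMs and membrane-type MMPs, included Pcsk7 at 74.4 and 75.1 CPM in the WT pair against 65.2 and 66.1 in the AXL KO pair, the 1 of 4 with both knockout values below both WT values (14.5% of all genes), with a difference of −0.19 ± 0.16. Pcsk6 and Pcsk5 had differences of −0.80 ± 0.58 and 0.23 ± 0.31. Of 8 meprin and tolloid genes 1 was tested. That gene, Bmp1, which encodes the tolloid protease that removes the carboxy-terminal end of procollagen, was at 7.53 and 28.3 CPM in the WT pair against 4.17 and 10.2 in the AXL KO pair, and its difference of −1.30 ± 0.75 was −0.05 without WT replicate 2.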

How the data were processed

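The 4 deposited files give 1 raw read count per gene and library; per the submitters' processing notes the tools were TopHat2 2.0.10, HTSeq 0.5.3, CASAVA 1.8 and DESeq2 1.4.5 with the build GRCm38, named without roles or order. Which annotation release, which strand setting and which filters on reads were used is not given in the sources used here. The 5 summary lines of each file name no gene and were left out; of all lines, alignments that were not unique took 23.2% to 28.1%, reads outside genes 5.27% to 8.11% and ambiguous reads 0.635% to 1.85%. Symbols, positions and exon lengths came from GENCODE M21 (GRCm38), which matched 36429 of 38293 rows; Mmp1a is not annotated there as protein-coding.

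Genes were kept with filterByExpr (14330 of 20587 with a count), scaled with TMM factors and compared with edgeR 4.0.16 (glmQLFit with legacy=FALSE, glmQLFTest), and p-values were adjusted by Benjamini-Hochberg across every tested gene. Standard errors are the log2 difference divided by the root of its F statistic. Alternatives used DESeq2 1.42.0, limma 3.58.1 (voom), other scalings and filters, and each library left out. The fit was also run on simulated data, and the outcome is not reported here.

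The genes, roles and lists were chosen with earlier results of these data known. Named are the TIMP genes, up to 4 genes per role with the most reads (mean of at least 0.5 CPM), the 10 with the smallest p, any gene with 1 library over 4-fold from the rest, and up to 3 per partner list; others, such as untested genes, were named after their values were seen. A search of protein motifs was not run, and 1 partner gene that this rule names is not reported here.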

Additional observations from a re-analysis of the deposited data

How the results depend on the processing

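The count of 0 metalloproteinase and TIMP genes past the threshold held under each alternative run, with 0 to 4 at an unadjusted p under 0.05. Over all genes edgeR called 0, DESeq2 16, and edgeR 246 without WT replicate 1 but 0 without any other library. Genes of the family above and below WT numbered 3 and 6, or 8 and 10 without a low-count filter, and 8 to 15 and 10 to 25 with 1 library left out, where fewer libraries make non-overlap more frequent. The median log2 difference of the family was −0.16, and −0.52 to 0.0861 with 1 library left out. With the replicate number as a block 0 genes of the family passed, their median was −0.22, and 571 rather than 314 of all genes had an unadjusted p under 0.05; deviations of same-numbered libraries had a correlation of −0.045 across genes, and the labels do not say that the numbers pair the tumours. Adamts12 changed sign without a filter (0.0071) and in limma-voom (0.0934), as did Mmp17 in limma-voom (0.0195); the cause was not tested.

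With 1 library left out the sign also changed for further genes, whose log2 differences ran from −0.23 to 0.34 for Adam10, −0.0411 to 0.17 for Adam15, −0.0074 to 0.10 for Adam17, −2.04 to 0.14 for Adam23, −0.0748 to 0.73 for Adamts10, −0.51 to 0.52 for Adamts12, −2.52 to 0.91 for Adamts14, −0.96 to 0.23 for Adamts2, −0.34 to 0.32 for Adamts3, −1.18 to 0.0044 for Adamts7, −1.56 to 0.19 for Adamtsl1, −1.06 to 0.66 for Adamtsl2, −0.34 to 0.51 for Adamtsl4 and −1.04 to 0.0749 for Adamtsl5. They ran from −0.0541 to 0.26 for Mmp11, −0.94 to 0.43 for Mmp12, −0.73 to 0.12 for Mmp14, −0.38 to 0.0414 for Mmp15, −0.49 to 0.64 for Mmp17, −1.28 to 0.18 for Mmp19, −0.77 to 0.25 for Mmp2, −0.75 to 0.65 for Mmp23, −0.10 to 1.86 for Mmp28, −1.57 to 0.0665 for Timp1, −0.72 to 0.60 for Timp2 and −0.35 to 0.44 for Timp3. With 1 library left out the lone library of its group is assumed to vary like the other group. The rarer genes, such as Mmp25 with 9 to 43 reads per library, are limited by depth as well.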
